A study of Mus musculus with 23 samples.

Results

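Cytochrome P450 enzymes (P450s) carry a heme group and need electrons, so the ileum of mice given an inducer of P450 genes was examined for the genes that make heme and pass on electrons. The 9 genes were chosen by symbol: *Alas1*, *Alad*, *Uros*, *Urod*, *Ppox* and *Fech* of heme synthesis, *Hmox1* of heme breakdown, and *Por* and *Cyb5a* of electron supply. They were found by the gene name printed on the array for each probe, which gave 16 probes, and they are 9 of 24813 genes named on the array. Where a gene had several probes, the brightest one was taken first.

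Ileum was taken from male mice on the C57BL/6J background, 1 array per mouse, in 4 groups. Wild-type mice (WT) were bought at 6 weeks of age and kept for 2 weeks before allocation, whereas mice lacking the pregnane X receptor (*Pxr*-/-) had been bred in house for 10 years, so genotype and breeding origin cannot be told apart. Their age is not given in the labels. Pregnenolone 16α-carbonitrile (PCN), a ligand of the rodent receptor, had corn oil as its vehicle, which alone served for the controls (CONT). The dose was 100 mg/kg, put into the peritoneal cavity on each of 4 days. Tissue came from zeitgeber time (ZT) 6, with a gap of 6 h from dosing, and the labels allocate 6 mice to each group. There were 5 arrays of WT PCN and 6 of every other group (WT CONT, *Pxr*-/- CONT, *Pxr*-/- PCN), in wash batches 1 and 2 that each held all 4 groups.

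As background, heme is built from glycine and succinyl-CoA. 5-aminolevulinate synthase, encoded by *Alas1* outside red cell precursors, sets the pace of the pathway, and *Alad*, *Uros*, *Urod*, *Cpox*, *Ppox* and *Fech* encode later steps, the last of which inserts iron. Heme oxygenase 1 (*Hmox1*) opens the ring again and releases iron. Microsomal P450s take electrons from NADPH through P450 oxidoreductase (*Por*), and cytochrome b5 (*Cyb5a*) helps some of them. In liver, *Alas1* and *Por* are long known to be raised by P450 inducers, and the receptor acts as a partner of RXR on repeats of a short half-site.

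The windows around annotated start sites are shown for *Alas1* and *Por*, members that rose with PCN in WT mice and have an entry in the table of windows. They are RefSeq sequences of build GRCm38.p6, 250 bases before to 50 bases after a start, at chr9:106247681-106247980 on the minus strand (*Alas1*) and chr5:135688895-135689194 on the plus strand (*Por*). Capitals mark GCATGCGC on either strand, the core of the site of nuclear respiratory factor 1, a known regulator of *Alas1*.
Alas1 window: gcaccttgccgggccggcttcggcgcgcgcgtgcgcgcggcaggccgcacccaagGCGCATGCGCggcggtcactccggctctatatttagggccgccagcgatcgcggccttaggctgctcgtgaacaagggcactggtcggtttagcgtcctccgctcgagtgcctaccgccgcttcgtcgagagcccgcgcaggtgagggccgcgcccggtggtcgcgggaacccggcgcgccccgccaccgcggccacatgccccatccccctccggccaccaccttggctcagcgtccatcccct
Por window: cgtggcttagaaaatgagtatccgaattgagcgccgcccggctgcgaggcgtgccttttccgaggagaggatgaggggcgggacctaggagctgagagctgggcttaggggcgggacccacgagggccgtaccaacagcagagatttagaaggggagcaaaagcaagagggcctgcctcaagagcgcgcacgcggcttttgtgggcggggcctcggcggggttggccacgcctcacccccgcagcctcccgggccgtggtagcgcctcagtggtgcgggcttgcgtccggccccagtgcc
The capitals in the *Alas1* window are a match on each strand that overlap. The other *Alas1* window overlaps this one and holds the same site, so the core was found at 1 site of 1 of the 6 members with windows, against 2.71% of all 32851 windows. The half-site AGGTCA or AGTTCA was in 1 member window, of *Alad*, against 27.7% of all windows. Repeats of the half-site in the arrangements searched (direct with a gap of 3 or 4, everted with a gap of 6) were in none of the 9, against 0.0122%, 0.0274% and 0.00913% of all windows. A window of the P450 gene *Cyp3a11* held the half-site but none of these repeats either. Bases outside the windows were not searched, so the absence of a repeat here does not show that a gene lacks one. The 9 member windows belong to 6 of the 9 members. *Fech*, *Hmox1* and *Cyb5a* had no entry.

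For a gene to be called, limma had to give an adjusted p (Benjamini-Hochberg over all 37591 tested probes) no higher than 0.05 and a change of more than 1.5-fold, which is log2 0.58. Genes of whole ileum cannot show whether more cells or more RNA per cell gave a signal. The enterocyte list had 11 of 11 genes measurable, with a group mean between 14.79 and 14.92 (log2 signal) in the 4 groups. Single arrays lay between 14.43 and 15.19. None of the 11 genes was called with PCN (limma), and 2 in WT and 4 in *Pxr*-/- mice were below an unadjusted p of 0.05. The red cell list, which bears on heme synthesis, had 7 of 13 genes tested, 3 listed genes above background on no array and group means between 8.87 and 9.03. Its lowest and highest arrays in the 4 groups were 7.70 and 10.16, and none of its 7 genes was called in any comparison (limma, none below an unadjusted p of 0.05). The probe of the targeted gene, *Nr1i2*, read 12.13 ± 0.23 in WT CONT and 11.72 ± 0.30 in *Pxr*-/- CONT (SD, n = 6 each; difference -0.41, adjusted p = 0.336, limma), between 11.57 and 12.53 on single WT PCN arrays and between 11.38 and 11.90 on *Pxr*-/- PCN arrays. The sources used here do not place that probe against the deleted part of the gene, so it does not check the labels. The B cell list stood at 9.83 and 9.87 in WT PCN replicates 2 and 3 and at most 8.43 on every other array, so the main values that rest on WT PCN are also given without these 2 arrays.

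The P450 genes gave the reference for induction. *Cyp3a11*, the PXR target of the mouse that oxidises steroids and drugs, was 11.6-fold higher with PCN in WT mice (log2 3.53, SE 0.321, adjusted p = 1.21e-06) and differed by log2 -0.05 in *Pxr*-/- mice (SE 0.305, adjusted p = 0.947). Its WT PCN arrays read 11.01, 12.51, 12.12, 12.36 and 11.59 (log2 signal), all above the highest WT CONT array at 9.47. *Cyp2b10* was 24.4-fold higher in WT mice (log2 4.61) and log2 0.72 higher in *Pxr*-/- mice (adjusted p = 0.25, limma). Its *Pxr*-/- PCN arrays read 5.82 to 6.53 and its *Pxr*-/- CONT arrays 4.92 to 5.81, 5 of these 6 controls being above background. These ranges did not overlap, as for 3.18% of all tested genes. *Cyp2c55* was 11.4-fold higher in WT mice (log2 3.51) and log2 1.58 higher in *Pxr*-/- mice, which missed the threshold (adjusted p = 0.0502). Of 44 tested P450 genes of families 1 to 3, 12 rose in WT mice (27.3%, beside 1.05% of all tested genes) and 1, *Cyp2d40*, in *Pxr*-/- mice (2.27%, beside 1.47%). In each genotype 17 of the 44 were below an unadjusted p of 0.05. With PCN 30 were higher in WT (median log2 0.20) and 37 in *Pxr*-/- mice (median log2 0.29). Without WT PCN replicates 2 and 3, *Cyp3a11*, *Cyp2b10* and *Cyp2c55* were 9.61-fold, 14.7-fold and 9.45-fold higher in WT mice (adjusted p = 8.76e-05, 5.75e-07 and 0.00445), and 10 of the 44 genes were called. Several of the *Cyp3a* genes are near-identical, so that their probes may share signal.

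With PCN in WT mice, 3 of the 9 genes rose and none fell. *Alas1*, *Por* and *Cyb5a* rose 1.53-fold, 1.54-fold and 1.65-fold, and the other heme synthesis genes among the 9 stayed within log2 0.13 of the control. *Hmox1* was 2.22-fold higher but missed the threshold. The rule for a call was met by 1.05% of 17727 tested genes. The folds of *Alas1* and *Por* lay just above the fold limit.

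*Alas1*, the pace-setting synthase, read 14.51, 14.04, 14.31, 14.18 and 13.97 (log2 signal) on the 5 WT PCN arrays. WT CONT arrays ranged from 13.42 to 13.81 with a median of 13.56, *Pxr*-/- CONT arrays from 13.62 to 13.80 with a median of 13.77, and *Pxr*-/- PCN arrays from 13.40 to 13.90 with a median of 13.65. All 5 WT PCN arrays were above every array of the other 3 groups, which overlapped each other. The change was log2 0.62 in WT mice (SE 0.096, 95% interval 0.42 to 0.81, adjusted p = 0.000896, limma). Within wash batches 1 and 2 it was 0.73 and 0.53, with adjusted p of 0.187 and 0.234 in fits of 11 and 12 arrays. With arrays centred on their median in place of quantile normalization it was 0.56, under the fold limit (adjusted p = 0.035). Without WT PCN replicates 2 and 3 it was 0.63 (adjusted p = 0.0058), and leaving out WT PCN replicate 3 or replicate 1 gave 0.58 and 0.54, under the fold limit, with adjusted p of 0.0042 and 0.0031.

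**Figure D1:**
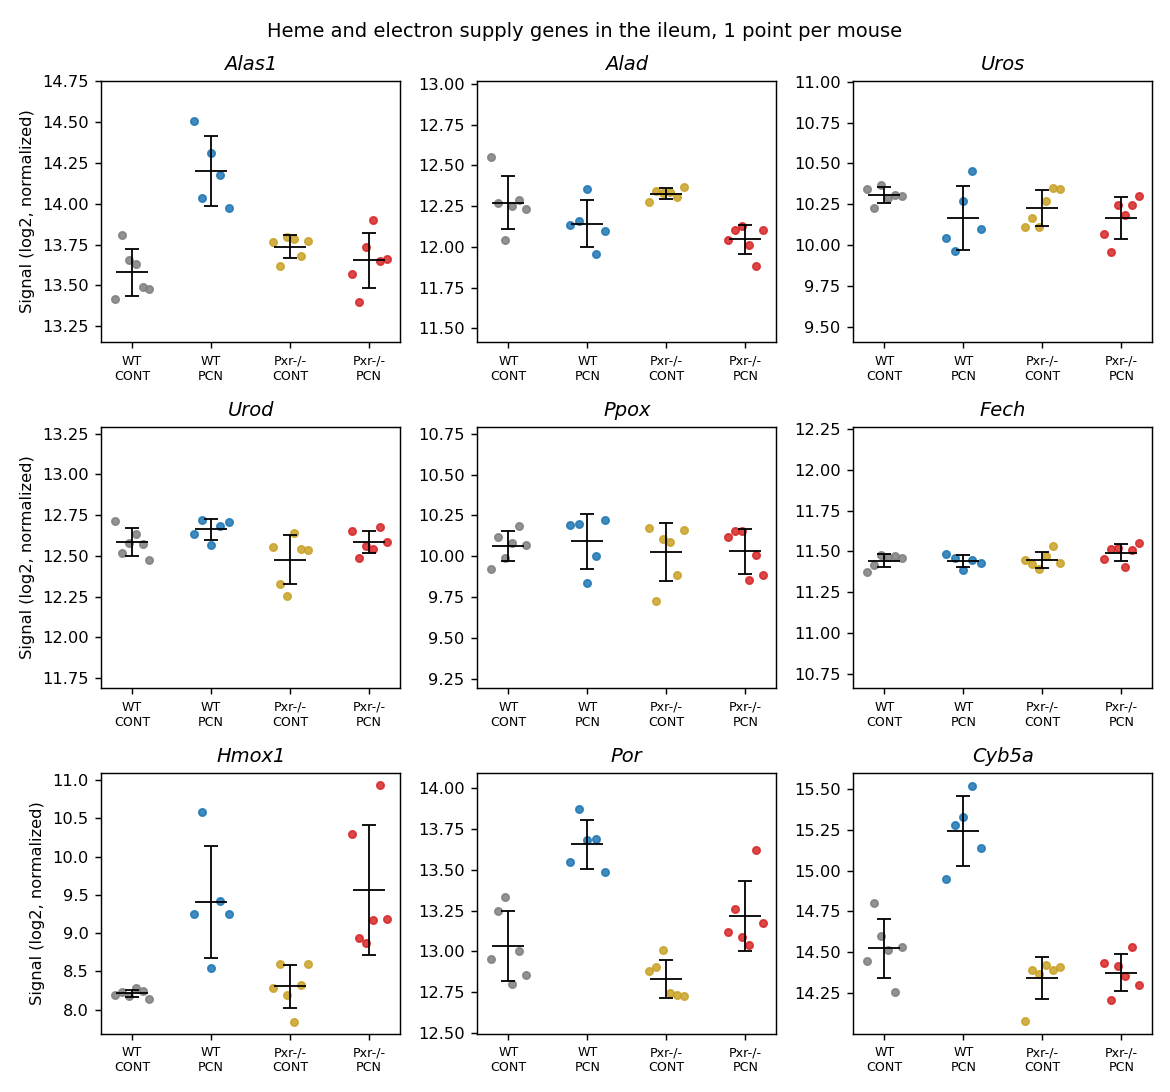
Normalized log2 signal of the brightest probe of each of the 9 genes (vertical axes, each with its own range) in WT CONT, WT PCN, Pxr-/- CONT and Pxr-/- PCN (horizontal axes). Points are single mice, and bars are the mean ± SD of 6, 5, 6 and 6 arrays. For Alas1 and Cyb5a only the WT PCN points stand above the rest, for Por and Hmox1 the PCN points of both genotypes lie above their controls, and for Urod, Ppox and Fech all 4 groups overlap.

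In *Pxr*-/- mice the change of *Alas1* with PCN was log2 -0.08 (SE 0.0913, 95% interval -0.27 to 0.10, adjusted p = 0.653), and 1 of 6 PCN arrays was above all controls and 2 below. The change in WT mice exceeded that in *Pxr*-/- mice by log2 0.70 (SE 0.132, 95% interval 0.43 to 0.98, unadjusted p = 2.58e-05, adjusted p = 0.0359, limma interaction). This was the only one of the 9 genes called for the interaction, a rule that called 0.118% of all tested genes. The estimate lay between 0.63 and 0.76 in the 23 fits that left out 1 array each, but the call held in 5 of them, with adjusted p from 0.015 to 0.109 (highest without WT PCN replicate 3), and without WT PCN replicates 2 and 3 together it was 0.71 (adjusted p = 0.0868). Within wash batches 1 and 2 it was 0.77 and 0.66, and with slide as a fixed block it was 0.71 and not called (adjusted p = 0.255). Among mice given PCN, *Alas1* was lower in *Pxr*-/- than in WT by log2 -0.54 (SE 0.096, adjusted p = 0.00429), just under the fold limit, and the ranges did not overlap. Without WT PCN replicates 2 and 3 that difference was -0.55 (adjusted p = 0.0278).

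The other probes of *Alas1* lay 1519 and 4762 bases further towards the gene's start on chromosome 9 than the brightest one (mm9, 106136284 to 106136343, minus strand). They are printed because they measure other stretches of the gene. The array assigns A_52_P129756 to another RefSeq transcript of *Alas1* than the other probes.
A_52_P129756: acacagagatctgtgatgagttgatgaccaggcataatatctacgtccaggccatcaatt
A_66_P109200: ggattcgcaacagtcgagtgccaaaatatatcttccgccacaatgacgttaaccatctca
These probes sit at chr9:106137803-106137862 and chr9:106141046-106141105 (mm9, minus strand). The probe A_52_P129756 read 11.57, 11.17, 11.28, 10.73 and 10.81 in WT PCN, against 10.25 to 10.62 (median 10.50) in WT CONT. Its changes with PCN were log2 0.64 in WT (adjusted p = 0.00879) and -0.29 in *Pxr*-/- mice (adjusted p = 0.189), with an interaction of 0.93 (adjusted p = 0.0359). In *Pxr*-/- mice 5 of 6 PCN arrays were below every control on this probe and 1 was above every control (unadjusted p = 0.0263, limma). The probe A_66_P109200 read 11.21, 10.75, 10.59, 10.61 and 10.49 in WT PCN, against 9.52 to 10.38 (median 10.18) in WT CONT. It changed by 0.64 in WT (adjusted p = 0.0553) and -0.22 in *Pxr*-/- mice (adjusted p = 0.449), with an interaction of 0.86 (adjusted p = 0.346). All 3 probes had every WT PCN array above every WT CONT array. Both further probes were called lower in *Pxr*-/- PCN than in WT PCN (log2 -0.79 and -0.70, adjusted p = 0.00155 and 0.0484, limma). On A_66_P109200 the ranges of these groups overlapped, with 5 of 6 *Pxr*-/- PCN arrays below every WT PCN array.

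**Figure D2:**
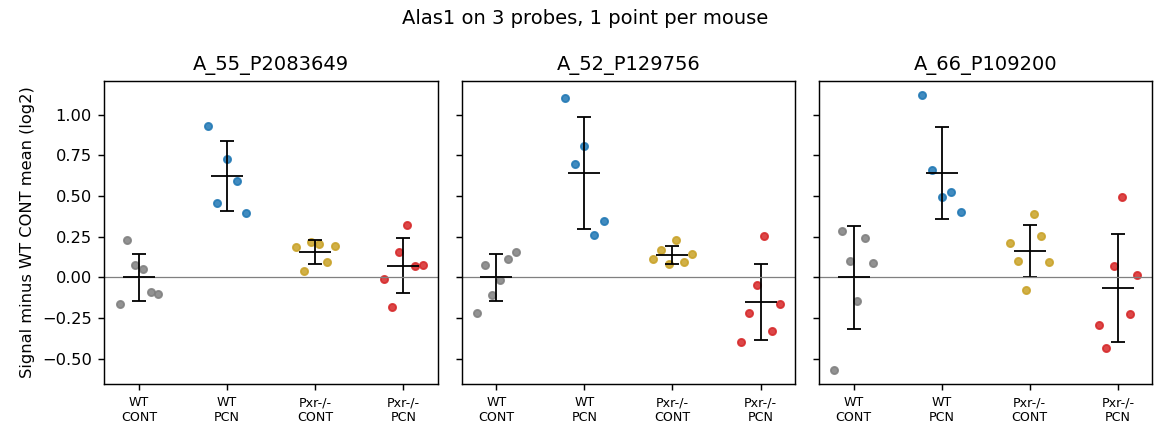
Signal of the 3 Alas1 probes, 1 panel each, as log2 difference from the mean of WT CONT (vertical axis, shared) by group (horizontal axis). Points are single mice and bars the mean ± SD. In each panel the 5 WT PCN points lie above all 6 WT CONT points, while the Pxr-/- points lie on both sides of 0.

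The genes of the later steps of synthesis did not pass in WT mice. *Alad*, whose enzyme joins aminolevulinate into porphobilinogen, read 12.13, 12.16, 12.35, 11.95 and 12.10 in WT PCN and 12.04 to 12.55 (median 12.26) in WT CONT, a change of log2 -0.13 (SE 0.078, adjusted p = 0.553) with overlapping ranges. In *Pxr*-/- mice it ranged from 11.88 to 12.13 (median 12.07) with PCN and from 12.27 to 12.37 (median 12.33) without, so that all 6 PCN arrays were below every control. The change was log2 -0.28 (SE 0.0742, adjusted p = 0.038), significant but under the fold limit. Its interaction was 0.15 (95% interval -0.07 to 0.37, adjusted p = 0.999), so the genotypes were not shown to differ. *Uros*, which closes the tetrapyrrole ring, changed by -0.13 and -0.06 in WT and *Pxr*-/- mice. *Urod*, which trims its side chains, changed by 0.08 and 0.11. *Ppox*, which makes protoporphyrin, changed by 0.01 in both genotypes. *Fech*, the ferrochelatase that inserts iron, changed by -0.0010 and 0.04, with 95% intervals of -0.10 to 0.10 and -0.05 to 0.14. For these 4 genes the lowest adjusted p in WT and *Pxr*-/- mice was 0.538 and 0.381. The further probes of *Uros* and *Ppox* changed by between log2 -0.17 and 0.04 with PCN, and none was called in any of the 5 comparisons. The dimmest of them, a *Uros* probe with a mean of 5.37, was above background on only 6 of the 23 arrays. Its lack of a call therefore says little about *Uros*.

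*Cpox*, which is not among the 9 and encodes the step before *Ppox*, changed by 0.02 in WT and -0.29 in *Pxr*-/- mice (adjusted p = 0.981 and 0.132). Of 11 other genes of heme synthesis tested, *Cpox* included, none was called in any of the 5 comparisons (limma), and 0 in WT and 3 in *Pxr*-/- mice were below an unadjusted p of 0.05. Their median changes were -0.05 in WT and -0.09 in *Pxr*-/- mice, beside -0.02 and 0.00 over all tested genes. The lowest adjusted p of the 11 genes with PCN was 0.58 in WT and 0.0186 in *Pxr*-/- mice (limma). In *Pxr*-/- mice that change was thus significant but under the fold limit.

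*Por*, which passes electrons from NADPH to P450s, rose in WT mice and was higher, by less, in *Pxr*-/- mice. Its WT PCN arrays read 13.55, 13.87, 13.68, 13.69 and 13.49, and WT CONT ranged from 12.80 to 13.34 (median 12.98). *Pxr*-/- PCN ranged from 13.04 to 13.62 (median 13.15) and *Pxr*-/- CONT from 12.73 to 13.01 (median 12.81). In both genotypes every PCN array was above every control array of that genotype. The changes were log2 0.62 in WT (SE 0.109, adjusted p = 0.00292) and 0.38 in *Pxr*-/- mice (SE 0.103, 1.31-fold, adjusted p = 0.0415), the latter under the fold limit. Within wash batches 1 and 2 they were 0.63 and 0.62 in WT and 0.36 and 0.41 in *Pxr*-/- mice. They differed by 0.24 (95% interval -0.08 to 0.55, unadjusted p = 0.131, adjusted p = 0.999), so that neither a difference between genotypes nor its absence was shown. In order of means, WT PCN (13.66) stood above *Pxr*-/- PCN (13.22), WT CONT (13.03) and *Pxr*-/- CONT (12.83), and each group overlapped the next in that order. The WT call was lost without WT PCN replicate 2 (0.57, adjusted p = 0.014), without WT CONT replicate 4 (0.56), without WT PCN replicates 2 and 3 together (0.54, adjusted p = 0.044) and with arrays centred on their median (0.57, adjusted p = 0.00563), each by falling under the fold limit. The *Pxr*-/- change was 0.30 without *Pxr*-/- PCN replicate 5 (adjusted p = 0.113).

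*Cyb5a*, the electron carrier cytochrome b5, followed the pattern of *Alas1*. Its WT PCN arrays read 14.95, 15.28, 15.33, 15.52 and 15.14, and WT CONT ranged from 14.25 to 14.80 (median 14.52). *Pxr*-/- CONT ranged from 14.08 to 14.42 (median 14.39) and *Pxr*-/- PCN from 14.21 to 14.53 (median 14.38). Every WT PCN array was above every array of the other groups, and those groups overlapped. The change was log2 0.72 in WT (SE 0.0991, 95% interval 0.52 to 0.93, adjusted p = 0.000225) and 0.03 in *Pxr*-/- mice (95% interval -0.16 to 0.23, adjusted p = 0.893). Within wash batches 1 and 2 the WT change was 0.90 and 0.60, and without WT PCN replicates 2 and 3 it was 0.68 (adjusted p = 0.00533). Among mice given PCN it was lower in *Pxr*-/- than in WT by log2 -0.87 (SE 0.0991, adjusted p = 1.32e-05), and by -0.83 without WT PCN replicates 2 and 3 (adjusted p = 0.000941). The interaction was 0.69 (SE 0.137, unadjusted p = 4.52e-05), with an adjusted p of 0.0531 that missed the threshold and ranged from 0.016 to 0.126 when 1 array was left out. Within wash batches 1 and 2 it was 1.02 and 0.42, and without WT PCN replicates 2 and 3 it was 0.65 (adjusted p = 0.265). No *Cyb5a* probe was saturated on any array.

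**Figure D3:**
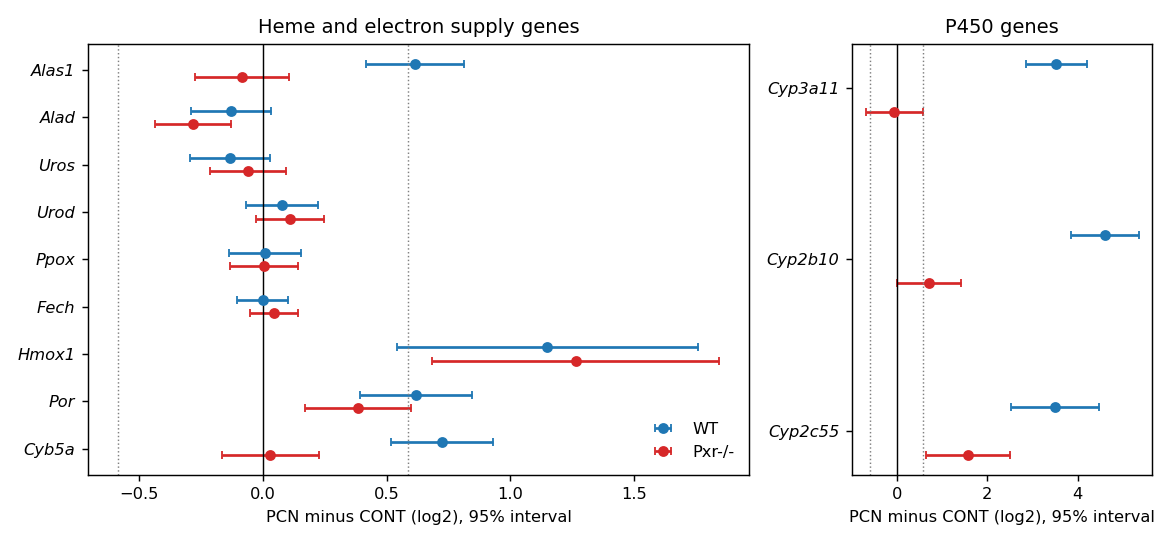
PCN minus CONT on the log2 scale with its 95% interval (limma) in WT mice (blue) and Pxr-/- mice (red), for the 9 genes on the left and 3 P450 genes on the right, whose axis is wider. Dotted lines mark the 1.5-fold limit. Alas1 and Cyb5a show blue points at 0.62 and 0.72 with red points at -0.08 and 0.03, Por and Hmox1 show both colours to the right of 0, and Uros, Urod, Ppox and Fech have all intervals across 0.

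*Hmox1*, the inducible heme oxygenase, was higher with PCN in both genotypes. WT PCN arrays read 9.25, 10.58, 8.54, 9.42 and 9.25 against 8.14 to 8.28 (median 8.21) in WT CONT. *Pxr*-/- PCN ranged from 8.87 to 10.94 (median 9.18) against 7.84 to 8.60 (median 8.30) in *Pxr*-/- CONT. All PCN arrays were above all controls of their genotype, and the SD with PCN was 0.74 and 0.85 against 0.05 and 0.28 without. The change in *Pxr*-/- mice was called (log2 1.26, 2.40-fold, SE 0.279, adjusted p = 0.0155), and that in WT mice was not (log2 1.15, SE 0.294, adjusted p = 0.0544). Both were larger within wash batch 2 (1.68 in *Pxr*-/- and 1.44 in WT mice) than within wash batch 1 (0.85 and 0.81), and none of these 4 values passed, with adjusted p from 0.0998 to 0.649. The interaction was -0.12 (95% interval -0.96 to 0.73, adjusted p = 0.999), so the genotypes were not shown to differ. The WT value was 0.90 without WT PCN replicate 2 (adjusted p = 0.182), 1.32 without replicate 3 (adjusted p = 0.0322) and 1.04 without both (adjusted p = 0.128).

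Several marker lists of other cell types were higher with PCN beside *Hmox1*. Of 11 macrophage markers 10 were tested, and all 10 were higher with PCN in both genotypes, by a median of log2 0.24 in WT and 0.32 in *Pxr*-/- mice, with 0 and 1 called (limma, 3 and 7 below an unadjusted p of 0.05). The mean over the list ranged from 9.52 to 9.81 in WT CONT, 9.65 to 10.15 in WT PCN, 9.45 to 9.88 in *Pxr*-/- CONT and 9.80 to 10.21 in *Pxr*-/- PCN, and 1 of its defining markers, *Vsig4*, was above background on no array. Of 7 fibroblast markers 6 were higher in WT (median 0.34, 1 called) and 7 in *Pxr*-/- mice (median 0.62, 3 called). Their mean ranged from 11.72 to 12.12 in WT CONT, 11.70 to 12.83 in WT PCN, 11.40 to 12.23 in *Pxr*-/- CONT and 12.10 to 12.89 in *Pxr*-/- PCN. Of 8 smooth muscle markers 6 were higher in WT (median 0.26, 0 called, limma, 5 below an unadjusted p of 0.05) and 8 in *Pxr*-/- mice (median 0.38, 3 called). Their mean ranged from 13.04 to 13.40, 13.08 to 13.68, 13.09 to 13.57 and 13.28 to 14.18 in the same 4 groups. Of 8 neutrophil markers 6 were higher in WT and 5 in *Pxr*-/- mice (medians 0.26 and 0.07), and 2 were called in each, which is 25% beside 1.05% and 1.47% of all genes. Single markers changed by log2 -0.26 to 2.16 in WT and -0.23 to 2.91 in *Pxr*-/- mice. The neutrophil mean ranged from 7.44 to 7.97, 8.03 to 8.81, 7.70 to 8.11 and 8.17 to 9.08 in the same 4 groups. Its PCN and CONT ranges did not overlap in either genotype. The highest neutrophil means, 9.08, 8.86 and 8.81, were in *Pxr*-/- PCN replicates 5 and 1 and WT PCN replicate 2. The part of these cell types in the *Hmox1* result was not tested. Of 9 targets of NRF2, a transcription factor of the oxidant response that also drives *Hmox1*, none was called in WT mice (limma, 2 below an unadjusted p of 0.05). Only *Hmox1* itself was called in *Pxr*-/- mice. There *Gclc*, of glutathione synthesis, was log2 0.55 higher (adjusted p = 0.011) and *Gsr*, glutathione reductase, log2 -0.48 lower (adjusted p = 0.0156), both under the fold limit.

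**Figure D4:**
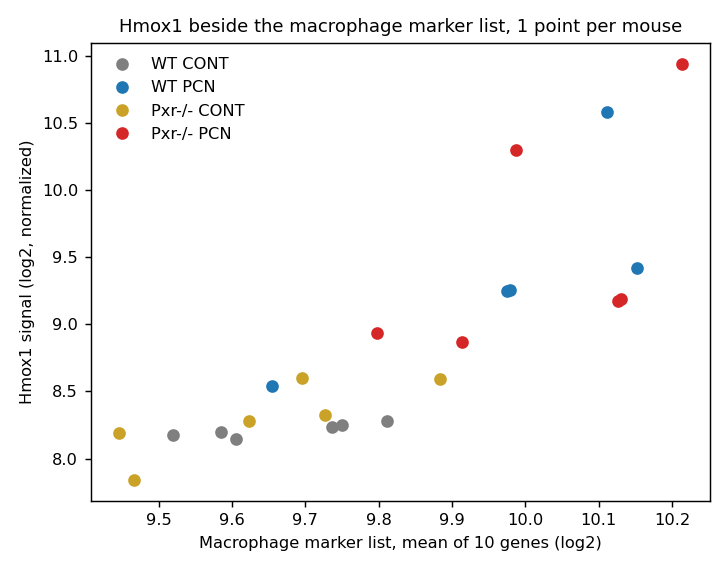
Hmox1 log2 signal (vertical axis) against the mean log2 signal of the 10 tested macrophage markers (horizontal axis), 1 point per mouse, coloured by group. Control arrays of both genotypes lie at an Hmox1 signal of at most 8.60. The highest points, 10.94 in Pxr-/- PCN and 10.58 in WT PCN, are at list means above 10. The next, 10.30 in Pxr-/- PCN replicate 1, is at 9.99. Pxr-/- PCN replicates 4 and 6 and WT PCN replicate 4, at list means of 10.13, 10.13 and 10.15, read 9.18, 9.19 and 9.42.

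In *Pxr*-/- mice the rule called 1 of the 9 genes, *Hmox1*, beside 1.47% of all tested genes. Without the fold limit *Alad*, *Hmox1* and *Por* passed, beside 5% of all genes. Ranges of PCN and CONT arrays did not overlap for 4 of the 9 genes in WT mice (*Alas1*, *Hmox1*, *Por* and *Cyb5a*), beside 3.52% of all genes, and for 3 in *Pxr*-/- mice (*Alad*, *Hmox1* and *Por*), beside 3.18%. The median change of the 9 genes was log2 0.08 in WT and 0.03 in *Pxr*-/- mice.

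Without PCN none of the 9 genes differed between genotypes by the test, although P450 genes did. The rule called 0 of 9 genes, with none below an unadjusted p of 0.05 (limma), beside 0.214% of all genes, and their differences (*Pxr*-/- minus WT) lay between log2 -0.20 for *Por* and 0.16 for *Alas1*. Of the 44 P450 genes 13 were lower in *Pxr*-/- CONT and none higher, among them *Cyp2c55* (log2 -4.63, adjusted p = 8.6e-06) and *Cyp3a11* (-1.81, adjusted p = 0.00698). With PCN the rule called 1 of the 9 genes, *Cyb5a*, beside 0.542% of all genes, and 14 P450 genes, all lower. *Alas1* passed too without the fold limit, beside 0.874% of all genes, and *Por* was lower by log2 -0.43 (SE 0.109, adjusted p = 0.0815), or -0.35 without WT PCN replicates 2 and 3 (adjusted p = 0.46). The ranges of the genotypes with PCN did not overlap for *Alas1* and *Cyb5a*, beside 1.29% of all genes. The 4 comparisons between groups share arrays, so they are not independent of each other.

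Genes around the pathway were mostly below the threshold. Of 13 other genes of heme breakdown and transport, 1 was called in 1 comparison (7.69%, beside 0.542% of all tested genes in that comparison). *Flvcr2*, a membrane transporter linked to choline and heme, was lower in *Pxr*-/- than in WT mice given PCN (log2 -1.17, SE 0.255, adjusted p = 0.0303, limma). Without WT PCN replicates 2 and 3 the *Flvcr2* difference was -0.83 and not called (adjusted p = 0.336). *Hebp1*, a heme-binding protein, and *Abcg2*, a transporter that exports porphyrins, changed by 0.26 and -0.40 with PCN in *Pxr*-/- mice (adjusted p = 0.023 and 0.0288), and *Pgrmc1*, a heme-binding partner of P450s, was log2 -0.37 lower in *Pxr*-/- than in WT mice given PCN (adjusted p = 0.0267), all under the fold limit. Without WT PCN replicates 2 and 3 the *Pgrmc1* difference was -0.29 (adjusted p = 0.314). None of 12 iron supply genes was called in any comparison (limma, with 3 in WT and 4 in *Pxr*-/- mice below an unadjusted p of 0.05 for PCN). None of 14 other electron supply genes tested, of 15 listed, was called either (2 and 5 below that p).

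The 5 genes with the most similar signal over the 23 arrays, among 17709 others, were listed by Pearson's r as a description, since the arrays share treatment and batch. For *Cyb5a* they were *Gstm3*, *Osbpl9*, *4931406C07Rik*, *Cyp2b10* and *Cyp3a11* (r from 0.937 to 0.947). For *Alas1* they were *B3galt5*, *Osbpl9*, *Ttc39b*, *Akr1b7* and *Ces2f* (r from 0.764 to 0.810). *Por* was nearest to *Defb37*, *Ugt2b34*, *B3gnt6*, *Defb40* and *Defb39* (r from 0.888 to 0.901), and *Hmox1* to *Emilin2*, *Trem2*, *F10*, *Chil3* and *Clec4e* (r from 0.939 to 0.956). *Osbpl9* stood in the lists of both *Alas1* and *Cyb5a*, and no P450 gene stood in that of *Por*.

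All 14 tested probes of the 9 genes passed the background filter through at least 1 group, and 13 of them were above background on all 23 arrays. The exception, a *Uros* probe, was above background on 6. Of the 16 probes the other 2, of *Alad* and *Hmox1*, were above background on no array and were not tested. The brightest probes of the remaining genes lay, in mm9, on chromosome 4 at 62170231 to 62170290 (*Alad*) and 116662850 to 116662909 (*Urod*), chromosome 7 at 140878069 to 140878128 (*Uros*), chromosome 1 at 173207452 to 173207629 (*Ppox*), chromosome 8 at 77624406 to 77624466 (*Hmox1*), chromosome 5 at 136211116 to 136211175 (*Por*) and chromosome 18 at 64616928 to 64616987 (*Fech*) and 85049104 to 85049163 (*Cyb5a*). Exon and UTR positions were not analysed here.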

How the data were processed

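Ileal RNA was labelled with Cy3 and read on single-colour Agilent arrays (1 per mouse, 23 in all). Per the file headers, the deposited scanner values are intensity, the linear brightness of each spot, extracted with Agilent Feature Extraction 10.10.1.1 and annotated on mm9. The deposited value table holds log2 values that the authors had filtered, corrected for wash batch and normalized with CrossNorm. It served as an alternative, because scanner files allow each step to be stated, and the order of probes by brightness was the same in it. Here the median signal was used without control and outlier spots, set to log2, averaged per probe and quantile normalized. Probes well above background on at least 50% of arrays of a group were tested (37591 of 56605, 17727 named genes). limma 3.58.1 (R 4.3.3) fitted the 4 groups and wash batch over all probes, with 5 contrasts, the interaction being the PCN change in WT minus that in *Pxr*-/- mice. A call needed a Benjamini-Hochberg adjusted p no higher than 0.05 and a change of more than 1.5-fold. The fit was tested on simulated data. The number of arrays limits the precision. The 9 genes were described with all their probes, P450 references were *Cyp3a11*, *Cyp2b10* and *Cyp2c55*, and from the other lists genes called in at least 1 contrast were named, up to 12, with *Cpox* (1 further gene of that rule is not reported here); *Hebp1*, *Abcg2*, *Pgrmc1*, *Gclc* and *Gsr* were named after their values were seen. Members, lists and marker lists were chosen with earlier results of these data known. Alternatives changed the signal, scaling, filter, batch, slide or replicate terms, the fold limit, the probe rule, or left out arrays. Probe names were updated to RefSeq symbols, which 12867 probes did not match.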

Additional observations from a re-analysis of the deposited data

Results flagged for a closer look

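The PCN change of *Alas1* differed between the genotypes by log2 0.70 (WT minus *Pxr*-/-, SE 0.132, adjusted p = 0.0359, limma interaction over 23 arrays), a call that held in 5 of the 23 fits with 1 array left out and was lost with slide as a fixed block (adjusted p = 0.255). In the 36 sets of arrays examined (9 genes in 4 groups), 2 held a single array far from the others, and chance gives about 1 in 20 such sets. *Por* read 13.62 in *Pxr*-/- PCN replicate 5, where the next array was at 13.26 and the lowest at 13.04. *Cyb5a* read 14.08 in *Pxr*-/- CONT replicate 1, where the next array was at 14.36 and the highest at 14.42.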

How the results depend on the processing

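Counts of the 9 genes called under other settings were as follows. In WT mice (3 called), 1 was called with arrays centred on their median and within wash batch 1, and 0 within wash batch 2. The gene called with median centring was *Cyb5a*, and 2 genes, *Alas1* and *Cyb5a*, were called without WT PCN replicates 2 and 3. In *Pxr*-/- mice (1 called), 0 were called within either wash batch and 3 without the fold limit. For the interaction (1 called), 2 were called with normexp correction, without the wash batch term and with the mean over a gene's probes, and 0 with median centring, without the filter on dim probes, within either wash batch, with slide as a fixed block and without WT PCN replicates 2 and 3, a setting chosen after seeing the data. Between genotypes with PCN (1 called), 0 were called within wash batch 2 and 2 without the fold limit and with the mean over probes. Between genotypes without PCN the count was 0 under every setting. With 1 array left out in turn the counts ranged from 2 to 4 in WT mice, 1 to 1 in *Pxr*-/- mice, 0 to 2 for the interaction and 1 to 2 between genotypes with PCN. The cause of these shifts was not tested, and the fits within a single batch hold fewer arrays.

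Same-numbered mice were not paired by the labels, and of 33 same-number pairs 5 had deviations that correlated above 0.1 (range -0.26 to 0.35). The replicate block left the counts at 3 in WT mice, 1 in *Pxr*-/- mice and 1 between genotypes with PCN, and took the interaction from 1 to 0 (*Alas1* 0.70, adjusted p = 0.0904).

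*Alas1* kept an interaction between 0.66 and 0.83 over 15 alternatives, and was called in 7 of them. Its lost calls included the processed signal (0.74, adjusted p = 0.0616), no filter (0.70, adjusted p = 0.0542) and median centring (0.72, adjusted p = 0.334). In the authors' deposited value table the counts were those reported, 3, 1, 1, 0 and 1. The values that changed sign, 33 of 675 under these alternatives and 39 with 1 array left out, were all of differences not called.

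For PCN in WT mice, *Ppox* was -0.047 (median centring), -0.075 (wash batch 1) and -0.040 (slide as a fixed block), *Uros* 0.023 (wash batch 1), and *Fech* 0.0092 (wash batch 2), 0.0029 (replicate block) and 0.014 (without WT PCN replicates 2 and 3). For PCN in *Pxr*-/- mice, *Ppox* was -0.024 (processed signal), -0.010 (normexp), -0.038 (median centring), -0.052 (wash batch 2) and -0.031 (mean over probes), *Cyb5a* -0.0095 (processed signal), -0.045 (median centring) and -0.12 (wash batch 1), and *Fech* -0.016 (median centring). For the interaction, *Ppox* was -0.0027 (deposited table), -0.0096 (median centring), -0.14 (wash batch 1), -0.0017 (slide as a random block) and -0.043 (slide as a fixed block), *Uros* 0.14 (wash batch 1) and 0.0076 (mean over probes), and *Urod* 0.030 (processed signal). Between genotypes without PCN, *Fech* was -0.00080 (normexp), -0.0040 (median centring) and -0.026 (wash batch 2), *Ppox* 0.017 (wash batch 2) and 0.023 (mean over probes), and *Hmox1* -0.051 (slide as a fixed block). With PCN, *Uros* was 0.0019 (no wash batch term) and 0.15 (wash batch 2), and *Ppox* 0.045 (wash batch 1).

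With 1 array left out, the ranges across 0 were as follows. For PCN in WT mice they were -0.0076 to 0.048 (*Ppox*) and -0.015 to 0.016 (*Fech*), and in *Pxr*-/- mice -0.042 to 0.040 (*Ppox*) and -0.019 to 0.071 (*Cyb5a*). For the interaction they were -0.069 to 0.015 (*Urod*), -0.032 to 0.049 (*Ppox*) and -0.36 to 0.14 (*Hmox1*). Between genotypes they were -0.072 to 0.0036 (*Ppox*), -0.012 to 0.017 (*Fech*) and -0.017 to 0.16 (*Hmox1*) without PCN, and -0.049 to 0.058 (*Uros*) and -0.049 to 0.46 (*Hmox1*) with PCN.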
